A study of Mus musculus with 27 samples.

Results

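Hepatic stellate cells and the myofibroblasts they give rise to are described here through 10 genes: Acta2, Tagln, Des, Vim, Pdgfra, Pdgfrb, Reln, Dcn, Lum and Tnc. They form a named list without collagens and were found by matching symbols to the GRCm38 annotation. All 10 were among the 41388 gene identifiers of the count files, and all 10 were among the 15121 genes that passed the filter on low counts.

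Messenger RNA was sequenced from livers of 27 female C57BL/6 mice, all of them ovariectomized, with an age label of 120 days. The mice received sesame oil vehicle or TCDD (2,3,7,8-tetrachlorodibenzo-p-dioxin), a persistent agonist of the aryl hydrocarbon receptor, by gavage at intervals of 4 days over 92 days. There were 3 livers in each of 9 groups, which were vehicle, the low doses of 0.01, 0.03, 0.1 and 0.3 µg/kg, and the higher doses of 1, 3, 10 and 30 µg/kg TCDD. Vehicle mice lacked ovaries as well, so no group speaks for intact females.

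In the resting liver, stellate cells lie between the sinusoidal endothelium and the hepatocytes, store vitamin A and carry desmin, reelin and the PDGF receptors. After injury they can lose their vitamin A stores, divide in response to PDGF, build actin stress fibres and secrete matrix, which is called activation, and other fibroblasts of the portal tract can contribute matrix as well. Tenascin C is a large matrix glycoprotein that is scarce in resting adult tissue and laid down at sites of injury.

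At 30 µg/kg, 6 of the 10 genes rose against vehicle: Tnc, Lum, Reln, Tagln, Vim and Pdgfra. Acta2, Des, Pdgfrb and Dcn did not pass the test, and none of the 10 fell. Tnc changed most, with a fitted fold of 21.4, and Pdgfrb least, with 1.08. Across all genes tested, 18.0% were called higher and 19.4% lower at this dose, by the quasi-likelihood test of edgeR at a Benjamini-Hochberg adjusted p below 0.05, the rule used throughout. The median log2 fold change at 30 µg/kg was 0.92 over the 10 genes and -0.01 over all genes. In whole liver RNA, more stellate cells, more RNA per stellate cell and RNA of these genes from other cells cannot be told apart.

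Libraries held 11050391 to 30873586 counts, apart from liver 2 at 0.3 µg/kg with 434011, in which the 10 genes had 0 to 66 counts each. Markers of other cells also differed between livers. The 5 hepatocyte markers summed to 55401 to 93901 CPM (counts over the TMM-scaled library total, per 1000000) at 30 µg/kg and 113881 to 223062 CPM in vehicle livers, and all 5 fell; the call of Ttr, at a log2 fold change of -0.84, ended with the 6 libraries alone, under upper-quartile scaling and without vehicle liver 3 (-0.56) or liver 1 (-0.84) or 3 (-0.52) at 30 µg/kg. Of 7 macrophage and monocyte markers 2 rose (Ccr2 and Itgam), of 4 B cell markers 3, of 4 cholangiocyte markers 3, and of 4 T cell markers 1; the exons of Itgam overlap other genes of its strand over 68.7% of their bases. Of 7 endothelial markers Lyve1 fell and of 4 Kupffer cell markers Clec4f fell, each with a call that ended without single livers, and the rest of both lists were not called. Of the Kupffer cell list, Marco had a log2 fold change of 2.21 (edgeR adjusted p = 0.0641). It was called higher by DESeq2 and with the 6 libraries alone. Without liver 2 at 30 µg/kg, Timd4 (-1.34) and the endothelial marker Stab2 (-0.60) were called lower. All 7 tested neutrophil markers rose at 30 µg/kg, to a summed 49.2 to 116 CPM with Ly6g included, against 1.20 to 2.61 CPM in vehicle livers, where Ly6g was at 0; the calls of Camp, Mpo and Elane ended when single livers were left out. Mesothelial markers had 0 of 5 called and summed to 4.46 to 11.2 CPM at 30 µg/kg, against 9.48, 2.14 and 2.61 CPM in vehicle livers 1, 2 and 3. Without vehicle liver 1, Msln was called at a log2 fold change of 3.22 in place of 1.66 and Upk1b at 2.67 in place of 0.78. Msln was also called without liver 2 at 30 µg/kg and under the replicate block, and both rose over the dose rank. The adipocyte markers summed to at most 0.423 CPM at 30 µg/kg and 0.157 CPM in vehicle livers. Vehicle liver 3 had 97.4 CPM of 5 skeletal muscle markers, against 0.0746 and 0.0523 CPM in the other vehicle livers. The part of these cells in the results below was not tested.

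**Figure D1:**
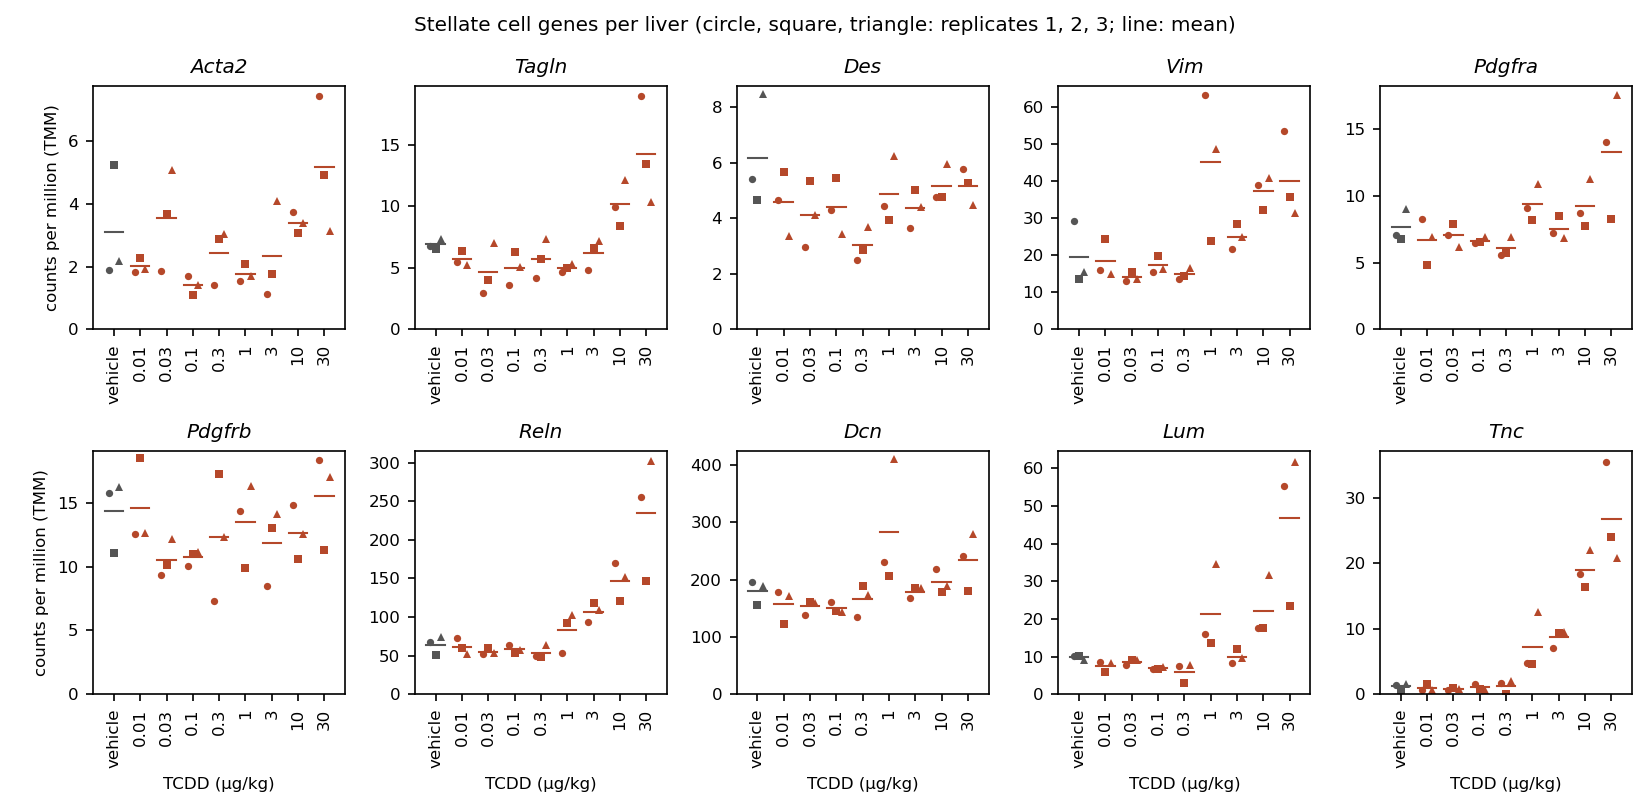
TMM-scaled CPM of the 10 stellate cell genes in each liver, from vehicle to 30 µg/kg TCDD, with 3 livers per group and a line at the mean. Tnc lay between 20.8 and 35.4 CPM at 30 µg/kg and at or below 1.65 CPM in vehicle livers, while Des and Pdgfrb overlapped between these groups.

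The upstream sequences of Reln and Tnc are shown because these genes had the smallest adjusted p-values at 30 µg/kg. They are the 250 bases before the RefSeq start site in GRCm38.p6, read 5′ to 3′ on the minus strand, at chr5:22344706-22344955 for Reln and chr4:64047016-64047265 for Tnc, with no annotated exon base in either window. Capitals mark GCGTG, the core of the site at which the aryl hydrocarbon receptor and its partner bind DNA.
Reln: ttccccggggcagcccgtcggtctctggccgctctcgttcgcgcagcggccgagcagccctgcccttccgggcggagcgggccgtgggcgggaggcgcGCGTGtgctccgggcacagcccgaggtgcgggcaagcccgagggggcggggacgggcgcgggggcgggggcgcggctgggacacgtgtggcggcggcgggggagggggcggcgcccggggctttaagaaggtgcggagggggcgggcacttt
Tnc: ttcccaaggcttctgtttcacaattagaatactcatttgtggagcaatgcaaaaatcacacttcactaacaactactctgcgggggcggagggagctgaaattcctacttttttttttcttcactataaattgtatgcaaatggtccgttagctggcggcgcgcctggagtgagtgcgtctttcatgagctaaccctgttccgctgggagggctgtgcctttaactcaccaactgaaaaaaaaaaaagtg
RefSeq windows were matched for 6 of the 10 genes, with 7 start sites in all. Annotated exons cover 217 bases of the Acta2 window, 250 of the Vim window and 79 of that at the other Tnc start site. All windows were searched on both strands for GCGTG, for the CArG box that binds serum response factor and for the AP-1 motif TGANTCA. The CArG box was taken strictly, as CC, 6 bases of A or T, and GG. Looser forms were not counted, such as ccctatatgg and ccttgtttgg in the Acta2 window. One match was found, the GCGTG in Reln that begins 152 bases before the start site; windows of the same length hold GCGTG in 28.2%, the CArG box in 1.47% and TGANTCA in 6.75% of 32851 RefSeq start sites.

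Of the 4 contractile and filament genes, Tagln and Vim rose at 30 µg/kg, and Acta2 and Des were not called. Acta2 encodes smooth muscle actin, the usual marker of an activated stellate cell (chromosome 19, 34241090 to 34255590, minus strand). It had 7.43, 4.92 and 3.14 CPM at 30 µg/kg, against 1.90, 5.23 and 2.17 CPM in vehicle livers. The groups overlapped through vehicle liver 2, the highest of that group. The log2 fold change was 0.76 ± 0.40 (SE), with an edgeR adjusted p of 0.146. Without vehicle liver 2 it was 1.35, with an edgeR adjusted p of 0.0181. Acta2 counts were low, from 51 to 177 per liver in these groups, and other actin genes are close in coding sequence, so its counts are uncertain where reads fit several of them. Acta1, the actin of skeletal muscle, had 19, 10.1 and 19.7 CPM at 30 µg/kg, against 0, 0.0523 and 46.4 CPM in vehicle livers. Its log2 fold change was 0.06 and uncalled. Without vehicle liver 3 it was called at 9.18 (edgeR adjusted p = 0.000125), against vehicle livers at 0 and 0.0523 CPM. The muscle markers Ckm, Myh4, Tnnt3 and Mb were at or near 0 at 30 µg/kg and in vehicle livers 1 and 2.

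Tagln encodes transgelin, an actin-binding protein of smooth muscle and myofibroblasts (chromosome 9, 45929619 to 45936058, minus strand). It had 19, 13.4 and 10.3 CPM at 30 µg/kg, against 6.79, 6.54 and 7.38 CPM in vehicle livers. Every liver at 30 µg/kg lay above every vehicle liver. Tagln rose by a log2 fold change of 1.05 ± 0.26 (SE, edgeR adjusted p = 0.00274). At 10 µg/kg its livers had 9.96, 8.44 and 12.1 CPM and again did not overlap with vehicle, with a log2 fold change of 0.56 and an edgeR adjusted p of 0.131; with the 6 libraries of the comparison fitted alone it was called (0.58, edgeR adjusted p = 0.0275). Genes of the opposite strand cover 67.9% of the exonic bases of Tagln; the strand setting of the counting is not given in the sources used here, so its counts are uncertain to that extent.

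Within a liver, the log2 ratio of Tagln to Acta2 averaged 1.5 ± 0.19 at 30 µg/kg and 1.30 ± 0.85 in vehicle livers (SD, n = 3 each), a difference of 0.20 with overlapping groups (exact two-sided permutation p = 1, where 0.1 is the smallest that 3 against 3 allows). The ratios given here and below are of raw read counts plus 0.5.

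Des encodes desmin, the intermediate filament of muscle and of rodent stellate cells (chromosome 1, 75360329 to 75368579, plus strand). It had 5.79, 5.26 and 4.47 CPM at 30 µg/kg, against 5.41, 4.65 and 8.47 CPM in vehicle livers. The groups overlapped, and the highest value of all 27 livers was that of vehicle liver 3, which also held the skeletal muscle markers. The log2 fold change was -0.26 ± 0.26 (SE, edgeR adjusted p = 0.457), and 0.045 without vehicle liver 3. Des was the one gene of the 10 with a negative value at 30 µg/kg.

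Vim encodes vimentin, the intermediate filament of mesenchymal cells and leukocytes (chromosome 2, 13573927 to 13582826, plus strand). It had 53.5, 35.6 and 31.3 CPM at 30 µg/kg, against 29.1, 13.6 and 15.6 CPM in vehicle livers. The groups did not overlap, although vehicle liver 1 came close to the lowest liver at 30 µg/kg. Vim rose by a log2 fold change of 1.04 ± 0.28 (SE, edgeR adjusted p = 0.00585). At 10 µg/kg Vim had 38.8, 32.3 and 40.8 CPM and a log2 fold change of 0.93 (edgeR adjusted p = 0.02). The call at 10 µg/kg ended when vehicle liver 2 or 3, or liver 1 or 3 at 10 µg/kg, was left out. Macrophage and monocyte markers summed to 301, 229 and 229 CPM in livers 1, 2 and 3 at 30 µg/kg and to 175, 125 and 110 CPM in vehicle livers 1, 2 and 3, and their part in the Vim result was not tested. The log2 ratio of Vim to Des in a liver was 2.92 ± 0.25 at 30 µg/kg and 1.62 ± 0.77 in vehicle livers (SD, n = 3 each), with no overlap (exact two-sided permutation p = 0.1, the smallest possible).

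Of the PDGF receptor genes, Pdgfra rose at 30 µg/kg and Pdgfrb was not called. Pdgfra encodes the receptor subunit that also marks liver fibroblasts (chromosome 5, 75152292 to 75198215, plus strand). It had 14.0, 8.26 and 17.5 CPM at 30 µg/kg, against 7.09, 6.75 and 9.03 CPM in vehicle livers. Liver 2 at 30 µg/kg lay within the vehicle range, and the other 2 lay above it. Pdgfra rose by a log2 fold change of 0.79 ± 0.22 (SE, edgeR adjusted p = 0.0066), and the call ended without liver 3 at 30 µg/kg, at 0.57 and an edgeR adjusted p of 0.0618.

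Pdgfrb encodes the main PDGF receptor of stellate cells (chromosome 18, 61045150 to 61085061, plus strand). It had 18.3, 11.3 and 17.1 CPM at 30 µg/kg, against 15.8, 11.1 and 16.2 CPM in vehicle livers. These ranges were almost the same, and the log2 fold change was 0.11 ± 0.24 (SE, edgeR adjusted p = 0.745), with a sign that turned, to -0.035, without vehicle liver 2. The log2 ratio of Pdgfra to Pdgfrb was -0.27 ± 0.27 at 30 µg/kg and -0.90 ± 0.23 in vehicle livers (SD, n = 3 each). The ratio was higher in each liver at 30 µg/kg than in any vehicle liver (exact two-sided permutation p = 0.1, the smallest possible). At 10 µg/kg it was -0.46 ± 0.30 (SD, n = 3) and overlapped with vehicle (exact two-sided permutation p = 0.2).

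Reln encodes reelin, a secreted glycoprotein made by stellate cells in rodent liver and known best for guiding neurons (chromosome 5, 21884454 to 22344702, minus strand). It had 255, 147 and 302 CPM at 30 µg/kg, against 67.8, 50.8 and 74.3 CPM in vehicle livers. The lowest liver at 30 µg/kg had about as much Reln as the mean at 10 µg/kg, 147 ± 24.5 CPM (SD, n = 3), and all were above vehicle. Reln rose by a log2 fold change of 1.87 ± 0.23 (SE) with an edgeR adjusted p of 7.9e-07. It was called from 3 µg/kg on, with 0.73 on the log2 scale at 3 µg/kg (edgeR adjusted p = 0.0385) and 1.19 at 10 µg/kg (edgeR adjusted p = 0.000412). Livers at 3 µg/kg had 93.2, 119 and 109 CPM, above every vehicle liver. The call at 3 µg/kg ended when any 1 vehicle liver, or liver 2 or 3 at 3 µg/kg, was left out. Among reelin receptors and signalling genes, 2 of 3 tested were called higher at 30 µg/kg: Vldlr, a reelin receptor, with 28.9 ± 8.08 against 13.5 ± 1.80 CPM in vehicle livers, and Src, a kinase, with 25.7 ± 2.72 against 3.35 ± 0.38 CPM (SD, n = 3 each). The adaptor Dab1 and the receptor Lrp8 did not pass the low-count filter, and the call of Vldlr ended without liver 3 at 30 µg/kg.

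Dcn and Lum encode decorin and lumican, small leucine-rich proteoglycans that bind collagen fibrils and lie next to each other on chromosome 10. Dcn (97479609 to 97518143, plus strand) had 241, 181 and 280 CPM at 30 µg/kg, against 196, 157 and 189 CPM in vehicle livers. The groups overlapped, and the log2 fold change was 0.37 ± 0.21 (SE, edgeR adjusted p = 0.163).

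Lum (97565128 to 97572703, plus strand) had 55.2, 23.4 and 61.7 CPM at 30 µg/kg, against 10.3, 10.1 and 9.15 CPM in vehicle livers. All livers at 30 µg/kg were above all vehicle livers, with liver 2 well below the other 2. Lum rose by 2.25 ± 0.32 on the log2 scale (SE, edgeR adjusted p = 8e-06). At 10 µg/kg it had 17.6, 17.5 and 31.6 CPM, also above all vehicle livers, with a log2 fold change of 1.18 (edgeR adjusted p = 0.00889). That call ended without liver 3 at 10 µg/kg. The log2 ratio of Lum to Dcn was -2.42 ± 0.46 at 30 µg/kg and -4.19 ± 0.21 in vehicle livers (SD, n = 3 each), without overlap (exact two-sided permutation p = 0.1, the smallest possible). Of the other small leucine-rich proteoglycans 5 passed the filter, none rose, and Fmod (fibromodulin) was called lower at 1.24 ± 0.37 against 2.58 ± 2.00 CPM in vehicle livers (SD, n = 3 each), a call that ended under most alternatives, with a log2 fold change of -0.17 without vehicle liver 1 in place of -1.06. Bgn (biglycan) had 124 ± 25.8 against 109 ± 23.5 CPM in vehicle livers (SD, n = 3 each) and was not called.

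Tnc (chromosome 4, 63959785 to 64047015, minus strand) had the widest range of the 10 genes. It had 35.4, 24 and 20.8 CPM at 30 µg/kg, against 1.38, 0.628 and 1.65 CPM in vehicle livers, which rest on 391 to 844 and 12 to 41 counts. Livers at 1 µg/kg had 4.76, 4.57 and 12.5 CPM, those at 3 µg/kg 7.09, 9.43 and 9.52 CPM and those at 10 µg/kg 18.4, 16.5 and 22 CPM. At each of these doses every liver was above every vehicle liver. The log2 fold change was 2.54 ± 0.39 at 1 µg/kg, 2.80 ± 0.39 at 3 µg/kg, 3.92 ± 0.39 at 10 µg/kg and 4.42 ± 0.40 at 30 µg/kg (SE), and Tnc was called at each of these 4 doses, with edgeR adjusted p-values from 7.4e-05 to 6.1e-09. At 0.3 µg/kg it had 1.70 and 2.04 CPM, and 0 counts in the shallow library, which allows up to 8.62 CPM (3 counts, counting error only).

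The shape of the Tnc response was compared with that of all other tested genes by the mean absolute difference in log2 fold change over the 8 doses. The nearest were Arhgap10 at 0.32, Serpinb6a, a serine protease inhibitor, at 0.33, and Entpd2, an ectonucleotidase of portal fibroblasts, at 0.37. Their log2 fold changes at 30 µg/kg were 4.43, 4.10 and 4.10, but at 1 µg/kg Entpd2 had 1.79 and Tnc 2.54. All of these values share the same vehicle livers. Other genes overlap parts of all 3, over 10.5%, 29.3% and 28.8% of their exonic bases in the order named. Nearest to Des, the lowest of the 10 at 30 µg/kg, were Exoc3l4 at 0.09, Tmem138 at 0.14 and Pnp2 at 0.14, none of them called at that dose.

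**Figure D2:**
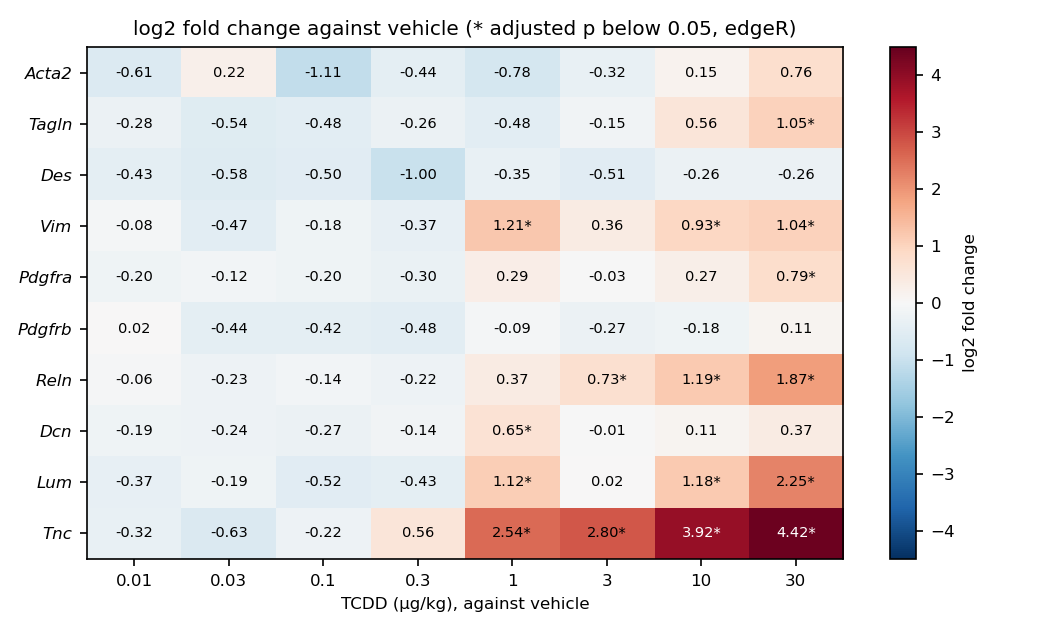
Log2 fold change of each gene at each dose against the 3 vehicle livers, from edgeR, with an asterisk where the adjusted p was below 0.05. Tnc reached 2.54 at 1 µg/kg and 4.42 at 30 µg/kg, and no gene was called from 0.01 to 0.3 µg/kg.

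From 0.01 to 0.3 µg/kg none of the 10 genes was called by edgeR or by DESeq2 at any dose. At an unadjusted p below 0.05, edgeR gave 0 at 0.01 µg/kg, 1 at 0.03 µg/kg (Des), 1 at 0.1 µg/kg (Acta2) and 1 at 0.3 µg/kg (Des). Of all genes, 4.79%, 3.13%, 5.07% and 10.1% passed this unadjusted rule at these doses, in the same order. By adjusted p, 0% of all genes were called at 0.01, 0.0397% at 0.03, 0.192% at 0.1 and 1.18% at 0.3 µg/kg. Fitted values lay mostly below vehicle, in 9, 9, 10 and 9 of the 10 genes at these doses. Their median log2 fold changes were -0.24, -0.34, -0.34 and -0.33, beside -0.009, -0.009, -0.008 and -0.023 over all genes. These comparisons share their vehicle livers. Genes lower in all livers of the dose than in any vehicle liver numbered 2 at 0.01, 1 at 0.03, 3 at 0.1 and 2 at 0.3 µg/kg, where 4.27%, 6.14%, 8.56% and 11.1% of all genes were. Lum was among them at each of these 4 doses, at 2.87 to 9.05 CPM against 9.15 to 10.3 CPM in vehicle livers. The 2.87 CPM of Lum is 1 count in the shallow library at 0.3 µg/kg, and livers 1 and 3 of that dose had 7.39 and 7.71 CPM. Des, the other gene without overlap at 0.3 µg/kg, also had 1 count in that library, too few to place it below vehicle.

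At 1 µg/kg, 4 of the 10 genes were called higher, namely Vim, Dcn, Lum and Tnc, where 11.1% of all genes were. The 3 livers of this dose differed widely. Vim had 63.1, 23.8 and 48.7 CPM, Dcn 231, 207 and 411 CPM and Lum 16.0, 13.7 and 34.6 CPM, against at most 29.1 CPM of Vim, 196 CPM of Dcn and 10.3 CPM of Lum in vehicle livers. Liver 3 was the highest of the 3 for Dcn, Lum and Tnc, and livers 1 and 3 were the high ones for Vim. Macrophage and monocyte markers summed to 817, 151 and 508 CPM and neutrophil markers to 1094, 5.0 and 183 CPM in these livers in the same order, against 110 to 175 CPM and 1.20 to 2.61 CPM in vehicle livers. With liver 2 as the one library of the dose, 1 of the 10 genes was called, Tnc, on the assumption that a lone library varies like the other groups. The calls of Dcn and Lum ended without liver 3, at log2 fold changes of 0.28 and 0.59 in place of 0.65 and 1.12, and also without vehicle liver 3 (0.68 and 1.07); that of Dcn ended without vehicle liver 2 as well (0.55). Without overlap with vehicle, 3 genes were higher at 1 µg/kg, Dcn, Lum and Tnc, where 16.9% of all genes were. In the other direction it was 1 gene, Tagln, where 18.6% of all genes were; Tagln had 4.64 to 5.28 CPM and was not called (edgeR adjusted p = 0.231).

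**Figure D3:**
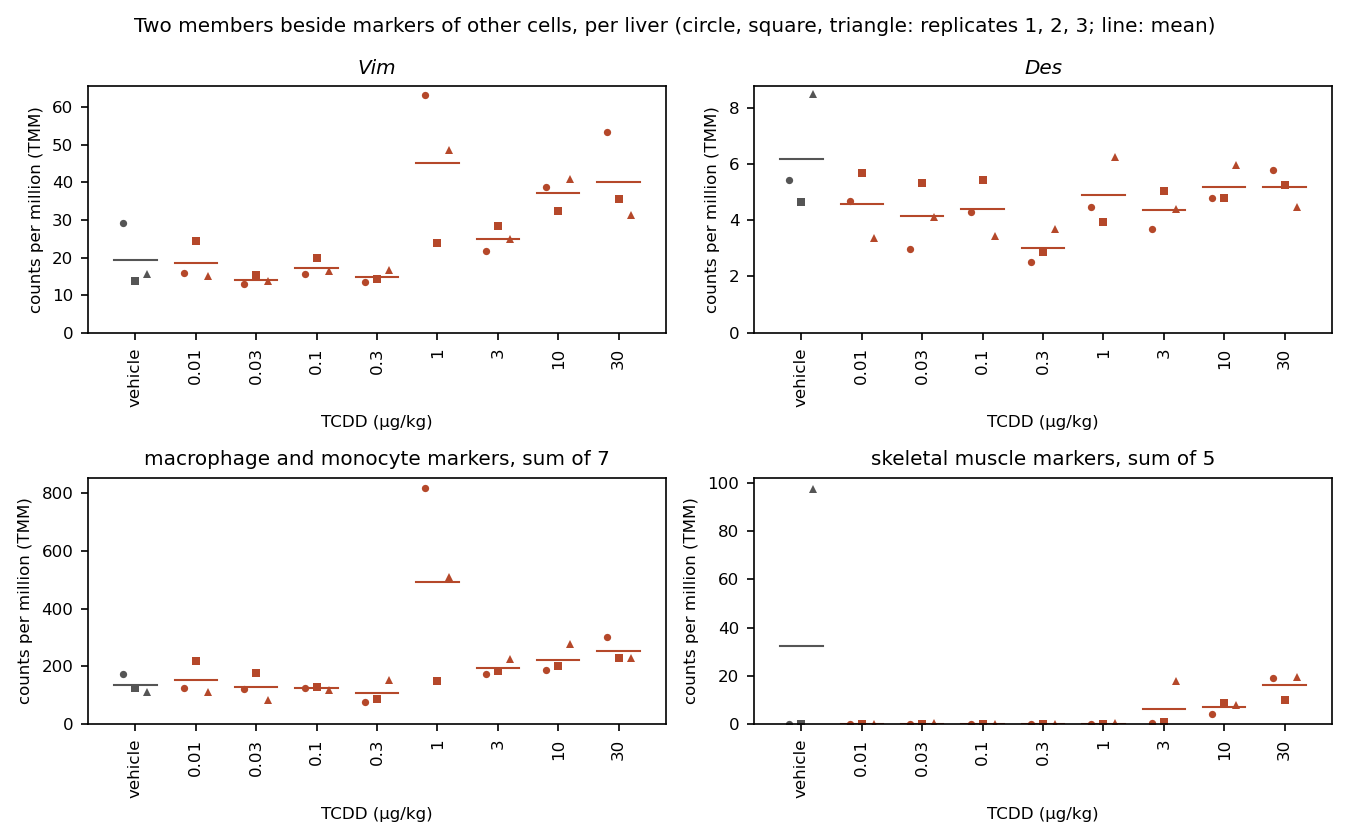
Vim and Des above the summed macrophage and monocyte markers and the summed skeletal muscle markers, in CPM per liver from vehicle to 30 µg/kg. At 1 µg/kg the livers high in Vim, at 63.1 and 48.7 CPM, were also those high in macrophage and monocyte markers, at 817 and 508 CPM, and vehicle liver 3 was highest in Des and in muscle markers.

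At 3 µg/kg, 2 of the 10 genes were called higher, Reln and Tnc, where 5.17% of all genes were. At 10 µg/kg it was 4 of 10, Vim, Reln, Lum and Tnc, where 11.3% of all genes were. Reln and Tnc were also the 2 genes higher without overlap at 3 µg/kg, where 16.1% of all genes were. The livers did not overlap with vehicle for 5 of the 10 genes at 10 µg/kg and at 30 µg/kg, in each case Tagln, Vim, Reln, Lum and Tnc, all higher, where 20.7% and 23.9% of all genes were higher without overlap. Called without a gap at every higher dose, Tnc began at 1 µg/kg, Reln at 3, Vim and Lum at 10, and Tagln and Pdgfra at 30 µg/kg.

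Between the highest doses, 30 against 10 µg/kg, none of the 10 genes was called by edgeR, where 1.38% of all genes were called higher. At an unadjusted p below 0.05 there were 3 by edgeR, Pdgfra, Reln and Lum, where 2866 of all 15121 genes passed in either direction. By adjusted p, DESeq2 called 1 of the 10, Lum. The log2 fold changes of 30 over 10 µg/kg were 1.07 for Lum (edgeR adjusted p = 0.0553), 0.67 for Reln (edgeR adjusted p = 0.1), 0.52 for Pdgfra (edgeR adjusted p = 0.201) and 0.50 for Tnc (edgeR adjusted p = 0.416). Without liver 2 at 30 µg/kg the first 3 of these were called. In that fit 1741 of all genes were called in either direction, in place of 484. Lum was also called without liver 3 at 10 µg/kg.

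The livers at 30 µg/kg were not ordered alike for all genes. Liver 2 was the lowest of the 3 for 5 genes, Pdgfra, Pdgfrb, Reln, Dcn and Lum, and liver 3 was the lowest for the other 5, Acta2, Tagln, Des, Vim and Tnc. Cholangiocyte markers summed to 44.7, 12 and 47.3 CPM in livers 1, 2 and 3 at 30 µg/kg, against 6.85 to 11.6 CPM in vehicle livers. Hepatocyte markers summed to 61689, 93901 and 55401 CPM in the same livers. Liver 2 was thus lowest in bile duct markers and highest in hepatocyte markers, and the part of either in the values of the 10 genes was not tested.

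Over the dose rank, from 0 for vehicle to 8 for 30 µg/kg, 7 of the 10 genes rose, namely Tagln, Vim, Pdgfra, Reln, Dcn, Lum and Tnc, where 23.3% of all genes did. The slope was 0.67 ± 0.05 per step (log2, SE) for Tnc with an edgeR adjusted p of 8.2e-11, 0.28 for Lum, 0.23 for Reln and 0.17 for Vim. Slopes were smaller for Tagln (0.13), Pdgfra (0.09) and Dcn (0.06, edgeR adjusted p = 0.0303), whose call ended without liver 3 at 30 µg/kg. Acta2 had a slope of 0.08 and was not called (edgeR adjusted p = 0.166), but was called without vehicle liver 2 (0.12, edgeR adjusted p = 0.0262). Names of the deposited libraries carry sequencing indices in different sets for vehicle to 0.1 µg/kg and for 0.3 to 10 µg/kg, so the trend was also fitted inside each set. Inside 0.3 to 10 µg/kg, 3 genes were called, Tagln, Reln and Tnc, and inside vehicle to 0.1 µg/kg none was. Of all genes, 974 and 51 were called inside these sets in either direction, against 7039 in the full trend. Uncalled slopes inside 0.3 to 10 µg/kg were 0.32 for Lum, 0.22 for Vim, 0.14 for Pdgfra and 0.004 for Dcn. The libraries at 30 µg/kg carry the indices of the vehicle libraries. Without the 30 µg/kg group 4 genes were called, Vim, Reln, Lum and Tnc, and the number of all genes called stayed within 1.5 times of 7039.

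Levels of different genes were set against each other per kilobase of exon. Dcn was highest at both ends of the series, with 40.1 ± 8.55 CPM per kb at 30 µg/kg and 30.9 ± 3.61 in vehicle livers (SD, n = 3 each). Lum was the next at 30 µg/kg, with 19.1 ± 8.37 against 4.02 ± 0.25 CPM per kb in vehicle livers, then Reln with 9.88 ± 3.36 against 2.71 ± 0.51, Vim with 8.46 ± 2.48 against 4.10 ± 1.77 and Tagln with 7.17 ± 2.21 against 3.47 ± 0.22. At 30 µg/kg Lum overlapped in range with Reln and Vim, and Reln, Vim and Tagln with each other. Tnc, the lowest of the 10 in vehicle livers at 0.157 ± 0.07 CPM per kb, had 3.44 ± 0.99 at 30 µg/kg. Pdgfrb had 2.84 ± 0.69, Acta2 2.35 ± 0.98, Des 1.38 ± 0.18 and Pdgfra 1.32 ± 0.47 CPM per kb at 30 µg/kg, and from Tnc downward each gene overlapped in range with the next.

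Of 14 other stellate cell markers, 1 rose at 30 µg/kg and 5 fell. Those that fell were Lhx2, a transcription factor that keeps stellate cells quiescent in mice, with 1.56 ± 0.39 against 5.0 ± 0.52 CPM in vehicle livers, Ecm1, a secreted matrix protein, with 80.8 ± 26.7 against 228 ± 90.2, Ngfr, a neurotrophin receptor, with 2.26 ± 0.71 against 6.10 ± 1.83, and Colec11 and Angptl6, whose calls ended when single livers were left out. Pparg, a nuclear receptor of quiescent stellate cells and of fat cells, rose by a log2 fold change of 0.67, and its call too ended without single livers. Lrat, the enzyme that esterifies vitamin A, had 29.3 ± 2.67 against 16.4 ± 3.11 CPM in vehicle livers (SD, n = 3 each) and was not called (edgeR adjusted p = 0.0922), although DESeq2 called it. The median log2 fold change of these 14 was -0.20, and their summed level was 218 to 269 CPM at 30 µg/kg, against 317 to 513 CPM in vehicle livers. Ecm1 made up most of that gap: without it the other 13 summed to 153 to 165 CPM at 30 µg/kg and 163 to 184 CPM in vehicle livers, ranges that overlap.

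Of 11 smooth muscle contractile genes tested, 3 rose and 2 fell. Tpm1 (a tropomyosin) had 112 ± 21 against 32.2 ± 4.85 CPM in vehicle livers and Actn1 (an actinin) 49.9 ± 5.35 against 22.9 ± 2.80 (SD, n = 3 each); the rise of Flna (filamin A), 0.85 on the log2 scale, ended without most single livers. Mylk (myosin light chain kinase) fell to 70.7 ± 19.6 CPM, against 127 ± 12.2 in vehicle livers. Tpm2 fell to 2.46 ± 0.56 CPM, against 11 ± 7.39 in vehicle livers, of which liver 3, with the muscle markers, had 19.4. The contractile genes Cnn1 and Actg2 did not pass the low-count filter. Of serum response factor and its coactivators, Srf was called lower at a log2 fold change of -0.56, a call that ended when any single liver of these groups was left out and under every other scaling tried, and Mrtfa and Mrtfb were not called.

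Of 9 portal and other fibroblast genes 5 rose and none fell. Entpd2 had 42.3 ± 4.79 against 2.46 ± 0.23 CPM in vehicle livers, and Eln (elastin) 7.32 ± 4.72 against 1.94 ± 0.34 CPM (SD, n = 3 each). Fbln2, Mgp and Pi16 also rose, each with a call that ended without single livers, while Dpt and Thy1 were not called. Of 11 matricellular and adhesive glycoproteins 6 rose, namely Thbs1, Thbs2, Spp1, Sparc, Ccn2 and Vcan, and Fn1 (fibronectin) fell to 943 ± 278 CPM, against 2198 ± 165 in vehicle livers. Thbs1 (thrombospondin) had 12.5 ± 6.46 against 1.34 ± 0.43 CPM, and Spp1 (osteopontin), which bile duct cells also make, 197 ± 95.7 against 43.2 ± 6.93 CPM in vehicle livers (SD, n = 3 each). The calls of Thbs2 and Sparc ended without single livers, and other genes overlap 18.8% of the exonic bases of Spp1 and 23.2% of those of Ccn2. Postn and Ccn1 were not called.

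Of the 4 PDGF ligand genes 3 rose at 30 µg/kg. Pdgfb had 3.84 ± 0.69 against 1.52 ± 0.70 CPM in vehicle livers (SD, n = 3 each). Pdgfa and Pdgfd rose by log2 fold changes of 0.90 and 1.01, and both calls ended without single livers; genes of the opposite strand cover 26.1% of the exonic bases of Pdgfa. Pdgfc was not called. Of 5 tested integrin genes whose products bind tenascin, Itga9 was called higher at 24.2 ± 0.76 against 15.3 ± 1.33 CPM in vehicle livers, a call that ended without vehicle liver 3. None of 4 partners of desmin and vimentin filaments was called. The lists' medians were 1.19 for fibroblast genes, 1.09 for reelin signalling, 0.96 for PDGF ligands, 0.65 for matricellular genes, 0.39 for contractile genes, 0.26 for filament partners, 0.16 for integrins, 0.12 for the other small leucine-rich proteoglycans and -0.34 for serum response factor and its coactivators (log2 fold change), beside -0.01 over all genes.

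**Figure D4:**
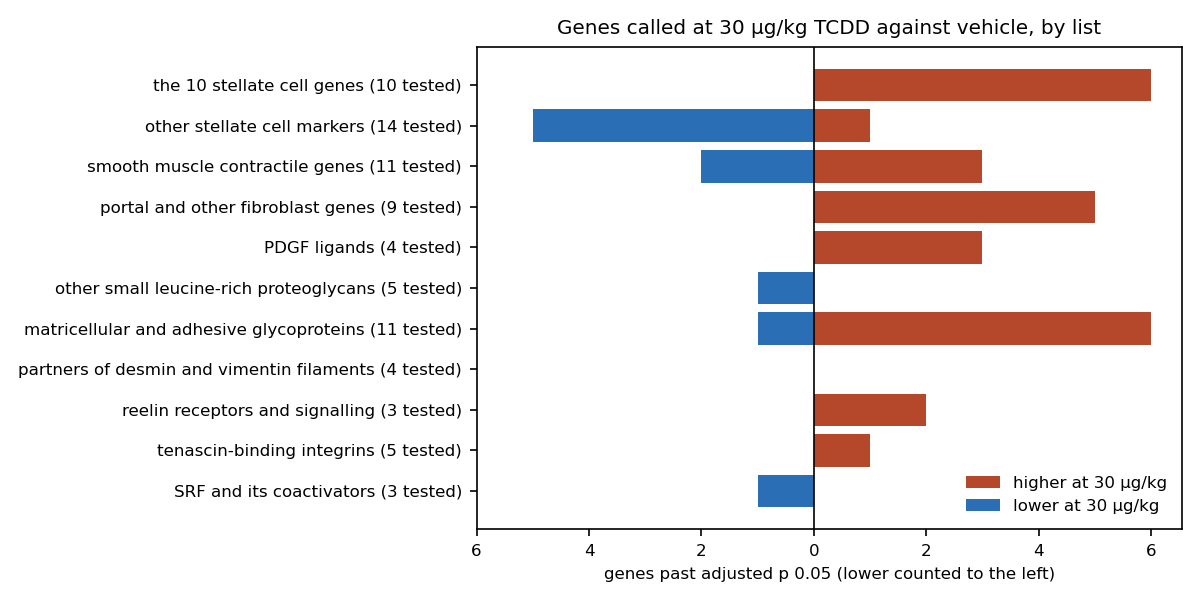
Number of genes called higher (right) or lower (left) at 30 µg/kg against vehicle in the list of 10 stellate cell genes and in 10 related lists, with the number tested in brackets. The 10 genes had 6 higher and 0 lower, and the other stellate cell markers 1 higher and 5 lower.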

How the data were processed

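Per the labels' protocols, TRIzol was used for RNA and an Illumina TruSeq kit for libraries. The deposited values are whole-number read counts per gene, which the authors made by counting with HTSeq 0.6.1 after cutadapt 1.4.1, TopHat 1.4.1 and SAMtools 0.1.19 on GRCm38, per the submitters' processing notes. How the counting treated strand is not given in the sources used here, nor is the annotation release. One label calls the dosing daily while the others give an interval of 4 days. Summary lines were kept out of library sizes; reads without a gene were 5.62% to 11.9% and ambiguous reads 1.79% to 3.49% of the reads, non-unique alignments left aside.

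Symbols and coordinates came from GENCODE M21 (GRCm38), which matched 40340 identifiers, and promoter sequences from RefSeq (GRCm38.p6). The software was edgeR 4.0.16 under R 4.3.3. Low genes were removed with filterByExpr at a minimum of 10 counts, TMM scaled the libraries, and a one-way robust quasi-likelihood model was fitted to all 27 libraries. Contrasts set every dose against vehicle and 30 against 10 µg/kg, and the trend came from a model on the dose rank. Adjusted p-values are Benjamini-Hochberg values over all 15121 genes tested. SEs of log2 fold changes were derived from the F statistic (absolute log2 fold change over root F). Levels are CPM with TMM scaling, and per kb they are divided by the merged exon length. No pair of libraries within a group was alike within sampling noise (chi-square per degree of freedom at least 5.62). The design text calls the 3 livers of a group biological replicates.

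Other settings tried were RLE or upper-quartile scaling, DESeq2 1.42.0, no low-count filter, a minimum of 50 counts, a replicate block, each pair of groups alone, a log10 dose scale, and fits without single libraries or groups. The 10 genes and the lists were chosen with earlier results of these data known. All 10 genes were tested in each comparison; from each other list up to 4 called genes with the lowest p and up to 2 uncalled ones with the highest CPM were to be named, of which most are given here, and further list members are named for their calls alone.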

Additional observations from a re-analysis of the deposited data

How the results depend on the processing

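Counts of called genes among the 10 changed little with the scaling, filter or tool: 76 of 83 such counts stayed within 1.5 times. These 76 include every count from 0.01 to 0.3 µg/kg, which was 0 in the main fit and in each alternative. The exceptions were 30 against 10 µg/kg, with 1 called gene (Lum) by DESeq2 and 1 under the replicate block in place of 0, the 1 µg/kg comparison, with 1 (Tnc) when its 6 libraries were fitted alone or when liver 2 was its only library, and the trend, with 4 without the 30 µg/kg group, 3 within 0.3 to 10 µg/kg and 0 within vehicle to 0.1 µg/kg. The trends within 0.3 to 10 µg/kg and within vehicle to 0.1 µg/kg called 974 and 51 of all genes, in place of 7039. The fits within index sets and with liver 2 alone were chosen after seeing the data.

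Within vehicle to 0.1 µg/kg the slopes were negative and uncalled, at -0.21 for Acta2, -0.17 for Tagln, -0.089 for Vim, -0.051 for Pdgfra, -0.056 for Reln, -0.082 for Dcn, -0.13 for Lum and -0.092 for Tnc, and the cause was not tested. Leaving out each library in turn gave 2 to 4 called genes at 1 µg/kg, 1 to 2 at 3 µg/kg, 2 to 4 at 10 µg/kg, 5 to 7 at 30 µg/kg, 0 to 3 for 30 against 10 µg/kg, 6 to 8 in the trend, and 0 at each lower dose. Uncalled log2 fold changes turned sign for Acta2 at 10 µg/kg (-0.078 to 0.76, at -0.028 without vehicle liver 3), for Pdgfrb at 30 µg/kg (-0.035 to 0.29) and for Des at 30 µg/kg (-0.41 to 0.045). The 7 genes called at 30 µg/kg without vehicle liver 2 included Acta2. The number of all genes called, behind the background shares, was 16, 11, 61 and 274 by DESeq2 at 0.01 to 0.3 µg/kg in place of 0, 6, 29 and 179, was 497 at 1 µg/kg with liver 2 alone and 1591 with the 6 libraries alone in place of 2927, and with the 6 alone 77 at 0.1 and 106 at 0.3 µg/kg, and for 30 against 10 µg/kg ran from 46 to 1741 with single libraries left out, and was 2 with the 6 alone, in place of 484. Without vehicle liver 3 it was 104 at 0.3, 1863 at 1, 917 at 3 and 2162 at 10 µg/kg in place of 179, 2927, 1520 and 3402. It was 56 at 0.01 µg/kg without liver 1 of that dose, 109 at 0.3 µg/kg without vehicle liver 1 and 53 without liver 3 of that dose, 1731 at 1 µg/kg without liver 1, and 1000 and 949 at 3 µg/kg without livers 2 and 3; at 30 µg/kg against vehicle no alternative moved it by over 1.5 times.

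RLE and upper-quartile scaling and DESeq2 shifted the all-gene median at 30 µg/kg by 0.11 (log2). Replicate numbers did not pair the livers: same-numbered livers had correlations of their deviations from -0.33 to 0.34, with 20 of 108 above 0.1, and 10 of 27 livers correlated best with their own number. The replicate block changed no other count of the 10 genes by over 1.5 times. Depth limits Acta2, Tnc at low doses and every gene in the shallow library; leaving that library out changed no count of the 10 genes by over 1.5 times.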
